A study of Xenopus laevis with 72 samples.

Results

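Secreted proteins that tune BMP, Nodal and Wnt signalling around the dorsal organizer were followed through genome activation in Xenopus laevis embryos. The genes were chosen by name. An entry was taken when its symbol without the homeolog ending .L or .S was chrd, nog, cer1, frzb, dkk1, admp, lefty or pnhd. Of the 8 symbols, 7 had entries, and 13 of the 39668 gene entries in the expression tables met the rule. They were nog.L, nog.S, admp.L, admp.S, pnhd.L, pnhd.S, lefty.L, lefty.S, cer1.S, dkk1.L, dkk1.S, frzb.L and frzb.S, which make 6 homeolog pairs and 1 single copy. No entry was named chrd alone. The 3 chordin copies chrd.1.L, chrd.1.S and chrd.2.L lay outside the rule and are described separately. cer1.L was not analysed here.

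RNA was sequenced from whole wild-type embryos of 4 injection groups. Cxxc1 MO and Kmt2b MO embryos had received antisense morpholinos that block translation of both homeologs of cxxc1 or kmt2b, whose CXXC-domain proteins belong to histone H3K4 methyltransferase complexes. Ctrl MO embryos had received a standard control morpholino, and NI Ctrl embryos were not injected. All injections were of 9.2 nl at 1 mM at the one-cell stage, embryos were kept at 18 °C, and collection was at 5.5, 6.5 and 7.5 hours post fertilization (hpf). Eggs came from 2 frogs, each a biological replicate, with 3 sets of 3 embryos per injection group and time point, so that 72 libraries were used. Embryos of 1 frog share a clutch, and fits of both frogs took frog as a covariate. Their p-values therefore measure mainly the spread between sets of embryos and not that between frogs, of which there were only 2. A morpholino that blocks translation need not change its target's mRNA, so the knockdown cannot be checked in these data.

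Values are TPM, read shares corrected for transcript length and scaled to a common total, which can be compared between genes. Because TPM are shares of a total, and whole embryos were used, fewer cells expressing a gene and less RNA per cell cannot be told apart. The deposited table sums to between 984999 and 996289 in each library. Protein-coding genes took 47.9% to 88.4% of a library, and at 7.5 hpf 64.7% to 68.8% in frog 1 and 47.9% to 61.2% in frog 2. The number of sequenced reads per library is unknown from TPM, so the counting error of the low values cannot be given. kallisto divides reads between similar transcripts by estimation, so the split between 2 homeologs of a pair carries an uncertainty that the SD does not contain.

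The organizer is the dorsal signalling centre of the amphibian embryo. It secretes proteins that bind BMP, Nodal and Wnt ligands outside the cell, which leaves zones of low signalling in which dorsal and anterior tissues form. Noggin and Chordin bind BMPs, Cerberus binds Nodal, BMP and Wnt ligands, Lefty blocks Nodal signalling, Dkk1 blocks the LRP co-receptors of Wnt, and Frzb is a soluble Frizzled-like protein that binds Wnt ligands. Admp differs from the others in being a BMP-type ligand made in the organizer, and Pinhead (pnhd) is a secreted cystine knot protein that binds Admp.

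The genes lie on 4 homeologous chromosome pairs of the Xenopus laevis v10.1 assembly. pnhd.L occupies chromosome 1L from 114014032 to 114020542, and admp.L follows from 114034899 to 114038830, with 14.4 kb and 0 annotated genes between them. The S copies repeat this arrangement on chromosome 1S, where pnhd.S runs from 95267675 to 95274008 and admp.S from 95298071 to 95303374, 24.1 kb apart with 0 annotated genes between. cer1.S is also on 1S, from 113568321 to 113572107. lefty.L lies on 5L from 17864822 to 17867904, and lefty.S on 5S from 12243936 to 12246090. The Wnt antagonist gene dkk1.L is on 7L from 8781354 to 8786238, and dkk1.S on 7S from 6356394 to 6361522. The nog and frzb pairs share a chromosome, with nog.L from 32767307 to 32769128 and frzb.L from 81228930 to 81240818 on 9_10L, and nog.S from 28716278 to 28718197 and frzb.S from 71335376 to 71348710 on 9_10S. All 13 are annotated as protein-coding.

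At 5.5 hpf 11 of the 13 entries were under 1 TPM in every library. Their highest single value was 0.432 TPM in frog 1 and 0.986 TPM in frog 2. The exceptions were nog.L, present in all 24 libraries, and dkk1.S, which exceeded 0.132 TPM in frog 2 only. Of the 156 values of the 13 entries at this time, 115 were exactly 0 in frog 1 and 73 of 156 in frog 2.

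dkk1.S differed between the clutches at 5.5 hpf. Frog 2 had 2.79, 0.947 and 1.48 TPM in Cxxc1 MO, 1.70, 2.27 and 1.16 TPM in Kmt2b MO, 2.78, 2.04 and 0.741 TPM in Ctrl MO and 2.29, 2.74 and 2.22 TPM in NI Ctrl embryos. In frog 1 it was 0 in 11 of 12 libraries and 0.132 TPM in 1 Ctrl MO library, so that the 12 libraries of each frog did not overlap. Its homeolog dkk1.L did not follow this pattern and stayed at or under 0.231 TPM in all 24 libraries. The 2 frogs are 1 clutch each, so the difference was not tested.

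nog.L was detected in both clutches at 5.5 hpf. In frog 1 it stood at 1.81, 1.03 and 0.932 TPM in Cxxc1 MO, 1.14, 1.22 and 1.19 TPM in Kmt2b MO, 1.23, 1.52 and 0.443 TPM in Ctrl MO and 1.05, 0.626 and 0.801 TPM in NI Ctrl embryos. In frog 2 the values were 2.04, 1.77 and 1.78 TPM in Cxxc1 MO, 1.28, 1.34 and 1.60 TPM in Kmt2b MO, 1.78, 1.15 and 1.07 TPM in Ctrl MO and 1.39, 1.40 and 1.96 TPM in NI Ctrl embryos. Both knockdowns overlapped with Ctrl MO in each frog. nog.S was lower, between 0 and 0.432 TPM in frog 1 and between 0.239 and 0.986 TPM in frog 2.

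**Figure D1:**
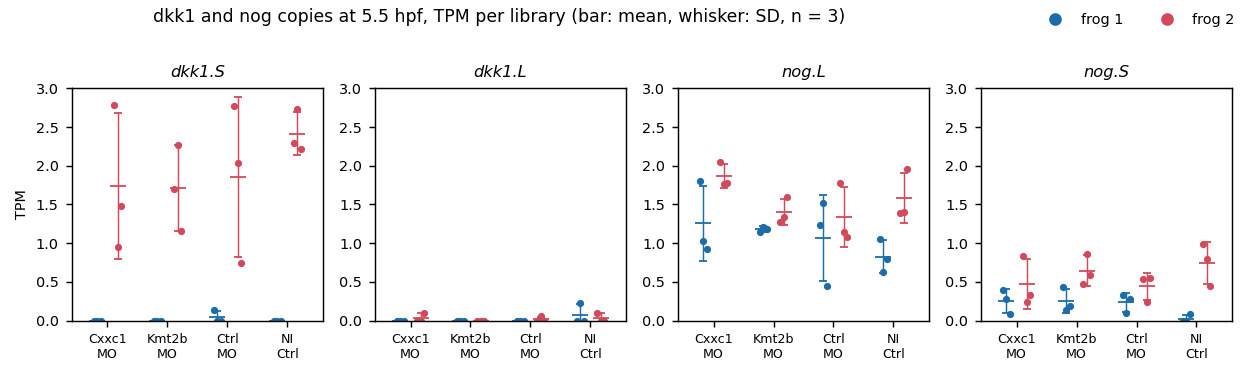
TPM (vertical axis) of dkk1.S, dkk1.L, nog.L and nog.S at 5.5 hpf in the 4 injection groups (horizontal axis). Points are libraries, blue for frog 1 and red for frog 2, with the mean (bar) and SD (whisker) of 3 libraries. dkk1.S lies between 0.741 and 2.79 TPM in frog 2 and between 0 and 0.132 TPM in frog 1, whereas nog.L is present in both.

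Only nog.L reached the filter of a mean of 1 TPM in each frog at this time, and it did not pass the test in either knockdown. Its log2 fold change on log2(TPM + 1), from limma fitted across 17853 genes with both frogs, was 0.23 (SE 0.14, adjusted p = 0.748) in Cxxc1 MO embryos and 0.09 (SE 0.14, adjusted p = 0.962) in Kmt2b MO embryos against Ctrl MO. Of all genes tested, 0.0224% were called lower in Cxxc1 MO embryos and 0.0672% in Kmt2b MO embryos at an adjusted p under 0.05.

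At 6.5 hpf the gene of the BMP-type ligand, admp.L, had the highest level of the 13 in both control groups of frog 2, and was lower there in both knockdowns. In frog 2 admp.L stood at 1.20, 1.83 and 2.16 TPM in Cxxc1 MO, 2.50, 1.16 and 1.93 TPM in Kmt2b MO, 4.25, 7.56 and 5.53 TPM in Ctrl MO and 6.46, 7.83 and 10.2 TPM in NI Ctrl embryos. All 6 knockdown libraries of frog 2 lay below all 6 control libraries. Frog 1 had 1.31, 1.54 and 0.605 TPM in Cxxc1 MO, 0.359, 0.625 and 0.902 TPM in Kmt2b MO, 1.01, 1.96 and 1.26 TPM in Ctrl MO and 1.69, 2.82 and 1.43 TPM in NI Ctrl embryos. There only the Kmt2b MO libraries lay entirely below Ctrl MO. With both frogs together, admp.L fell in Kmt2b MO embryos, where its log2 fold change was -0.90 (SE 0.23, adjusted p = 0.0301). The call was lost, with 0 members called, when any of 6 libraries was left out: Kmt2b MO set 1 or Ctrl MO set 2 of frog 1, or set 2 or 3 of Kmt2b MO or of Ctrl MO of frog 2. In Cxxc1 MO embryos, where it was not called, its log2 fold change was -0.74 (SE 0.23, adjusted p = 0.142).

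Lefty, the Nodal inhibitor, was detected in every library of frog 2 at 6.5 hpf and was low in frog 1. lefty.L in frog 2 measured 0.233, 0.307 and 1.29 TPM in Cxxc1 MO, 0.868, 0.196 and 0.593 TPM in Kmt2b MO, 1.77, 2.23 and 2.26 TPM in Ctrl MO and 3.07, 3.17 and 3.97 TPM in NI Ctrl embryos. lefty.S of the same frog measured 0.751, 0.474 and 1.43 TPM in Cxxc1 MO, 1.06, 0.631 and 0.611 TPM in Kmt2b MO, 2.42, 2.61 and 2.38 TPM in Ctrl MO and 2.86, 3.32 and 3.82 TPM in NI Ctrl embryos. For both copies the knockdown libraries lay below every control library. In frog 1 the highest lefty.L library was at 0.250 TPM at this time. Its means there were 0.0903 TPM in Cxxc1 MO, 0.131 TPM in Kmt2b MO and 0.118 TPM in Ctrl MO embryos. Those of lefty.S were 0.264 TPM in Cxxc1 MO, 0.0250 TPM in Kmt2b MO and 0.224 TPM in Ctrl MO embryos.

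pnhd.L, the neighbour of admp.L, was less abundant. In frog 2 it reached 0.485, 0.907 and 0.455 TPM in Cxxc1 MO, 0.924, 0.362 and 1.01 TPM in Kmt2b MO, 0.817, 2.31 and 1.85 TPM in Ctrl MO and 1.37, 1.97 and 2.50 TPM in NI Ctrl embryos, with an overlap between knockdown and Ctrl MO libraries. Frog 1 stayed between 0.200 and 1.06 TPM over all 12 libraries. The Wnt antagonist frzb and the copy dkk1.L were under 1 TPM in all 24 libraries at 6.5 hpf.

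Apart from admp.L and nog.L, the genes were under the filter at 6.5 hpf and have no test in the fit of both frogs. nog.L had log2 fold changes of -0.13 (SE 0.19) in Cxxc1 MO embryos and -0.17 (SE 0.19) in Kmt2b MO embryos and was not called. Of the 18351 genes tested, 0.463% were called lower in Cxxc1 MO embryos, against 0 of 2 members. At an unadjusted p under 0.05 from limma it was 1 of 2 members there, against 13.0% of all genes. In Kmt2b MO embryos 0.806% of all genes were called lower, against 1 of 2 members, admp.L. In frog 1 the admp.L mean was 0.629 TPM in Kmt2b MO embryos, so it reached the filter there only through the other groups. Its call is therefore no evidence of how often members fall.

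admp.L, lefty.L and pnhd.L rose from 6.5 to 7.5 hpf in all 4 injection groups, while TPM of the median gene was lower at 7.5 hpf. The median log2 change of all tested genes over this hour was between -0.86 and -0.79 in the 4 groups. Of the 3 genes, lefty.L had the highest fitted rise, with a log2 fold change of 2.63 (SE 0.19, adjusted p = 5.45e-10) in Cxxc1 MO, 2.41 (SE 0.20, adjusted p = 4.07e-09) in Kmt2b MO, 2.65 (SE 0.22, adjusted p = 4.66e-09) in Ctrl MO and 2.52 (SE 0.25, adjusted p = 3.69e-08) in NI Ctrl embryos. For admp.L the log2 fold change was 2.10 (SE 0.18, adjusted p = 4.93e-09) in Cxxc1 MO, 2.09 (SE 0.19, adjusted p = 8.54e-09) in Kmt2b MO, 1.93 (SE 0.24, adjusted p = 4.61e-07) in Ctrl MO and 1.68 (SE 0.24, adjusted p = 3.37e-06) in NI Ctrl embryos. For pnhd.L it was 1.87 (SE 0.15, adjusted p = 2.25e-09) in Cxxc1 MO, 1.69 (SE 0.14, adjusted p = 3.26e-09) in Kmt2b MO, 2.21 (SE 0.17, adjusted p = 2.78e-09) in Ctrl MO and 2.18 (SE 0.18, adjusted p = 3.44e-09) in NI Ctrl embryos. nog.L of Kmt2b MO embryos in frog 1 had a mean of 1.69 TPM at 6.5 hpf and at 7.5 hpf. The number of members higher was 8 of 8 tested in Cxxc1 MO (11.3% of all genes), 6 of 6 in Kmt2b MO (11.9%), 8 of 8 in Ctrl MO (12.3%) and 8 of 8 in NI Ctrl embryos (12.3%). Members near 0 before 7.5 hpf reach the filter only through their 7.5 hpf values, so these counts are no evidence of how often members rise. The 6 members tested in Kmt2b MO embryos became 2 when set 2 of frog 1 at 7.5 hpf was left out, since 4 then fell under the filter.

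Between 5.5 and 6.5 hpf, under the same filter, the members higher were 4 of 8 in Cxxc1 MO (5.11% of all genes), 3 of 6 in Kmt2b MO (5.22%), 5 of 8 in Ctrl MO (7.56%) and 5 of 8 in NI Ctrl embryos (7.74%). admp.L, admp.S and pnhd.L were among those called in all 4 groups. Members that were low before the last time point reached the filter only through their values there. The counts of members higher are therefore no evidence of how often members rise over this hour. lefty.L rose, its log2 fold change being 0.81 (SE 0.22, adjusted p = 0.0240) in Ctrl MO and 1.16 (SE 0.25, adjusted p = 0.00519) in NI Ctrl embryos, and was at 0.36 (SE 0.19, adjusted p = 0.182) in Cxxc1 MO embryos and 0.39 (SE 0.20, adjusted p = 0.255) in Kmt2b MO embryos, where it was not called. By frog, lefty.L means at 6.5 hpf were 0.118 TPM in Ctrl MO and 0.161 TPM in NI Ctrl embryos of frog 1. In frog 2 they were 2.09 TPM in Ctrl MO and 3.40 TPM in NI Ctrl embryos, so the fitted rise came mostly from frog 2. Whether this early rise differs between the groups was not tested as an interaction. The Ctrl MO count dropped to 3 when any of 5 libraries of frog 2 was left out (all 3 sets at 5.5 hpf, sets 2 and 3 at 6.5 hpf), and the Cxxc1 MO count to 2 without set 3 of frog 2 at 5.5 hpf.

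**Figure D2:**
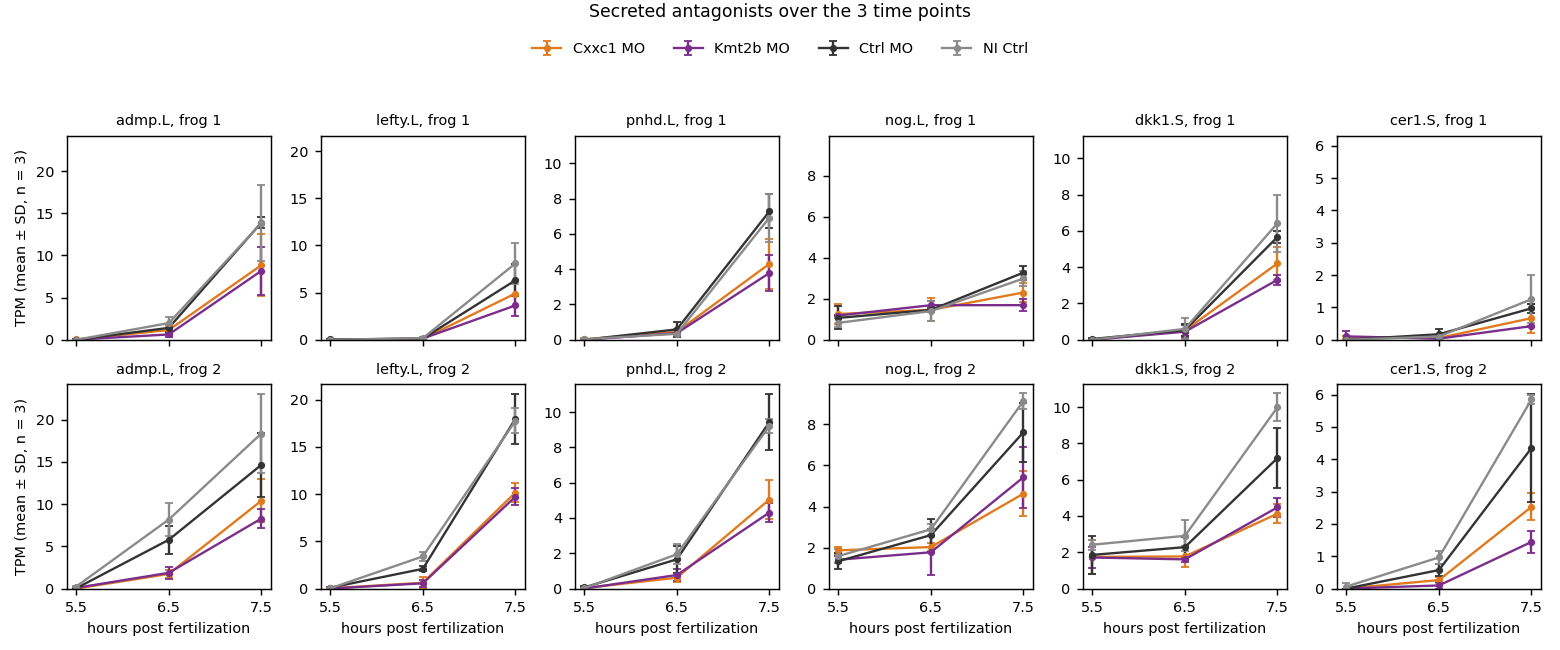
Mean TPM ± SD of 3 libraries (vertical axis) at 5.5, 6.5 and 7.5 hpf (horizontal axis) for admp.L, lefty.L, pnhd.L, nog.L, dkk1.S and cer1.S, with frog 1 in the upper and frog 2 in the lower row on the same scale for each gene. Lines are Cxxc1 MO (orange), Kmt2b MO (purple), Ctrl MO (black) and NI Ctrl (grey). At 7.5 hpf the means of both knockdowns lie below both control means in each panel.

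At 7.5 hpf most of the tested members fell in Kmt2b MO embryos, 8 of 10 with both frogs fitted together, and 2 of 10 fell in Cxxc1 MO embryos. The mean of each of the 13 entries lay below its Ctrl MO mean under each morpholino in each frog. The median of the 13 was 70.4% of Ctrl MO in frog 1 and 58.1% in frog 2 in Cxxc1 MO embryos, and 52.8% in frog 1 and 52.5% in frog 2 in Kmt2b MO embryos. Over all entries with a Ctrl MO mean of at least 0.5 TPM the median was between 98.8% and 99.1%. In frog 1 frzb.L in both knockdowns and cer1.S in Kmt2b MO embryos were under this limit and entered only through Ctrl MO. The 8 of 10 in Kmt2b MO embryos stand against 1.01% of 19153 genes called lower and 1.12% called higher. The 2 of 10 in Cxxc1 MO embryos stand against 0.277% called lower and 0.303% called higher. That count was 0 with only the 2 groups in the fit, where frzb.S was under the filter and not tested. It was 5 with libraries centred on their median gene, 6 with protein-coding genes only and 7 against NI Ctrl. The number of all genes called moved in the same direction under each of these settings, as given in the section on the processing. These shifts are therefore no result about the members. The median log2 fold change of the 10 was -0.69 in Kmt2b MO and -0.52 in Cxxc1 MO embryos, and that of all tested genes -0.01 in both. cer1.S, frzb.L and nog.S did not reach a mean of 1 TPM in frog 1 and have no test in this fit. frzb.S, called in both knockdowns, reached it in frog 1 only through the controls. Its means there were 0.634 TPM in Cxxc1 MO, 0.662 TPM in Kmt2b MO, 1.25 TPM in Ctrl MO and 1.95 TPM in NI Ctrl embryos. Its calls are therefore no evidence of how often members fall.

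**Figure D3:**
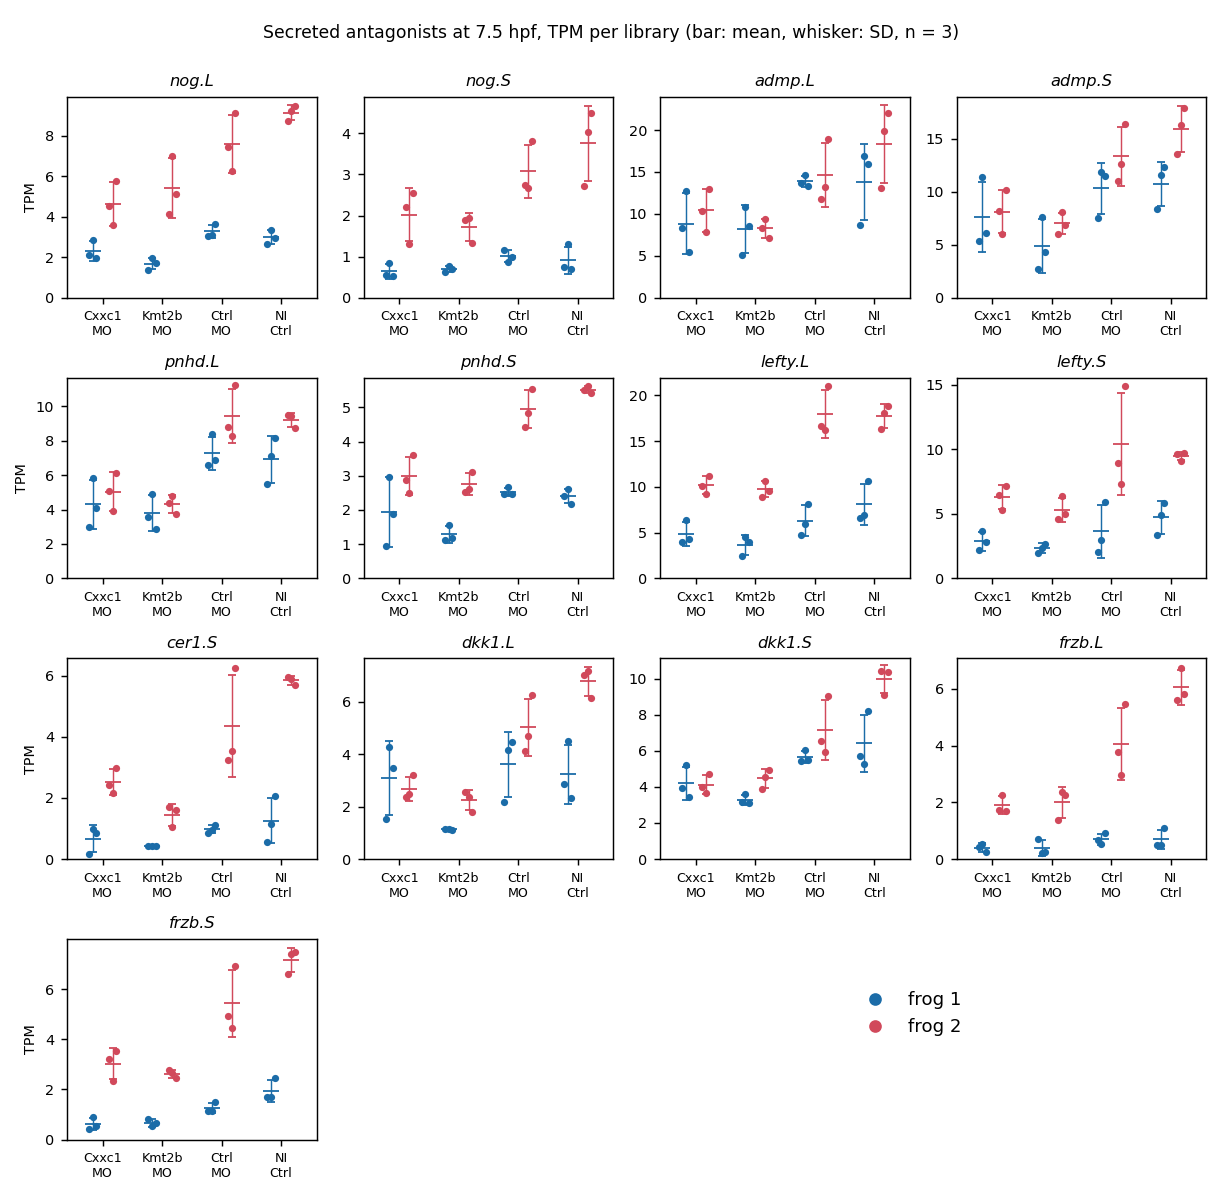
TPM (vertical axes, a scale of its own for each gene) of the 13 entries at 7.5 hpf in Cxxc1 MO, Kmt2b MO, Ctrl MO and NI Ctrl embryos (horizontal axes). Points are libraries, blue for frog 1 and red for frog 2, with the mean (bar) and SD (whisker) of 3 libraries. The mean of both knockdowns lies below Ctrl MO for all 13 entries in both frogs, and frog 2 is the higher of the 2 frogs for most.

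pnhd.L changed with the lowest adjusted p of the 10 tested members in both knockdowns. The libraries of frog 1 held 3.00, 5.83 and 4.09 TPM in Cxxc1 MO, 3.57, 4.91 and 2.87 TPM in Kmt2b MO, 6.57, 8.39 and 6.89 TPM in Ctrl MO and 5.48, 7.12 and 8.17 TPM in NI Ctrl embryos. The libraries of frog 2 held 5.11, 3.90 and 6.14 TPM in Cxxc1 MO, 4.36, 4.81 and 3.75 TPM in Kmt2b MO, 8.80, 8.28 and 11.2 TPM in Ctrl MO and 9.49, 9.43 and 8.75 TPM in NI Ctrl embryos. All knockdown libraries lay below all Ctrl MO libraries of their frog. The log2 fold change was -0.73 (SE 0.13, adjusted p = 0.00690) in Cxxc1 MO embryos and -0.89 (SE 0.13, adjusted p = 0.000476) in Kmt2b MO embryos. With only the 2 groups in the fit the Cxxc1 MO call was lost (adjusted p = 0.0967).

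pnhd.S in frog 1 measured 0.948, 2.98 and 1.89 TPM in Cxxc1 MO, 1.11, 1.57 and 1.19 TPM in Kmt2b MO, 2.46, 2.67 and 2.48 TPM in Ctrl MO and 2.40, 2.60 and 2.19 TPM in NI Ctrl embryos. In embryos of frog 2 it measured 2.87, 2.50 and 3.61 TPM in Cxxc1 MO, 2.53, 2.61 and 3.12 TPM in Kmt2b MO, 4.44, 4.85 and 5.55 TPM in Ctrl MO and 5.52, 5.63 and 5.42 TPM in NI Ctrl embryos. Only Cxxc1 MO set 2 of frog 1, the highest of its frog, overlapped with Ctrl MO. The log2 fold change was -0.65 (SE 0.12, adjusted p = 0.00510) in Kmt2b MO and -0.45 (SE 0.12, adjusted p = 0.131) in Cxxc1 MO embryos.

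admp.L, the best expressed of the 13 in most groups, was not called in either knockdown. In embryos of frog 1 it measured 8.34, 12.7 and 5.43 TPM in Cxxc1 MO, 5.14, 10.9 and 8.51 TPM in Kmt2b MO, 13.6, 14.6 and 13.4 TPM in Ctrl MO and 8.62, 16.9 and 15.9 TPM in NI Ctrl embryos. In frog 2 it was at 10.4, 7.89 and 13.0 TPM in Cxxc1 MO, 8.35, 9.41 and 7.11 TPM in Kmt2b MO, 11.8, 13.2 and 19.0 TPM in Ctrl MO and 13.1, 19.9 and 22.1 TPM in NI Ctrl embryos. Kmt2b MO libraries lay below Ctrl MO in both frogs, and Cxxc1 MO libraries overlapped with Ctrl MO in frog 2. The log2 fold change was -0.74 (SE 0.20, adjusted p = 0.0514) in Kmt2b MO and -0.56 (SE 0.20, adjusted p = 0.362) in Cxxc1 MO embryos. In Kmt2b MO embryos it missed the threshold by little and was called in 7 of the 19 alternative fits.

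admp.S was called where admp.L was not. Its values in frog 1 were 5.37, 11.3 and 6.11 TPM in Cxxc1 MO, 2.69, 7.64 and 4.33 TPM in Kmt2b MO, 7.52, 11.8 and 11.5 TPM in Ctrl MO and 8.40, 11.6 and 12.3 TPM in NI Ctrl embryos. Its values in frog 2 were 8.21, 6.00 and 10.1 TPM in Cxxc1 MO, 6.05, 8.09 and 6.84 TPM in Kmt2b MO, 11.0, 12.6 and 16.4 TPM in Ctrl MO and 13.5, 16.3 and 17.9 TPM in NI Ctrl embryos. The log2 fold change was -0.92 (SE 0.19, adjusted p = 0.00967) in Kmt2b MO and -0.55 (SE 0.19, adjusted p = 0.349) in Cxxc1 MO embryos. In frog 2 both knockdowns lay below every Ctrl MO library, and in frog 1 the highest library of each knockdown, set 2, lay above the lowest of Ctrl MO.

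nog, the BMP antagonist already present at 5.5 hpf, also ended lower. nog.L in frog 1 stood at 2.12, 2.85 and 1.95 TPM in Cxxc1 MO, 1.39, 1.96 and 1.71 TPM in Kmt2b MO, 3.05, 3.11 and 3.66 TPM in Ctrl MO and 2.68, 3.36 and 2.93 TPM in NI Ctrl embryos. In frog 2 the values were 4.54, 3.59 and 5.75 TPM in Cxxc1 MO, 4.12, 7.02 and 5.12 TPM in Kmt2b MO, 7.44, 6.28 and 9.13 TPM in Ctrl MO and 8.74, 9.22 and 9.47 TPM in NI Ctrl embryos. The knockdown and Ctrl MO libraries were apart except for Kmt2b MO set 2 of frog 2. nog.L fell in Kmt2b MO embryos, where its log2 fold change was -0.55 (SE 0.13, adjusted p = 0.0219). It was not called in Cxxc1 MO embryos, at -0.50 (SE 0.13, adjusted p = 0.0930). The Kmt2b MO call was lost when any of 4 libraries was left out, Kmt2b MO set 1 or Ctrl MO set 3 of frog 1, or Kmt2b MO set 1 or Ctrl MO set 3 of frog 2, with adjusted p between 0.0505 and 0.0684. nog.S averaged 0.639 ± 0.175 TPM in Cxxc1 MO, 0.703 ± 0.0751 TPM in Kmt2b MO and 1.01 ± 0.149 TPM in Ctrl MO embryos of frog 1, and 2.02 ± 0.641 TPM in Cxxc1 MO, 1.71 ± 0.337 TPM in Kmt2b MO and 3.07 ± 0.642 TPM in Ctrl MO embryos of frog 2 (SD, n = 3 each).

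Of the Nodal antagonists, lefty.L was the most abundant transcript and separated clearly in frog 2. There its level was 10.1, 9.23 and 11.2 TPM in Cxxc1 MO, 8.94, 10.7 and 9.56 TPM in Kmt2b MO, 16.7, 16.2 and 21.0 TPM in Ctrl MO and 16.3, 18.1 and 18.9 TPM in NI Ctrl embryos. In frog 1 it was at 4.00, 6.41 and 4.30 TPM in Cxxc1 MO, 2.42, 4.51 and 3.97 TPM in Kmt2b MO, 4.79, 5.97 and 8.14 TPM in Ctrl MO and 6.65, 6.98 and 10.6 TPM in NI Ctrl embryos. Kmt2b MO lay below Ctrl MO in both frogs, whereas Cxxc1 MO overlapped with it in frog 1. lefty.L fell in Kmt2b MO embryos, its log2 fold change being -0.74 (SE 0.14, adjusted p = 0.00477). The value in Cxxc1 MO embryos was -0.53 (SE 0.14, adjusted p = 0.108), not called.

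lefty.S, its homeolog, varied more among the Ctrl MO libraries. Frog 1 had 2.17, 3.65 and 2.81 TPM in Cxxc1 MO, 1.98, 2.36 and 2.69 TPM in Kmt2b MO, 2.01, 3.00 and 5.92 TPM in Ctrl MO and 3.38, 4.93 and 5.84 TPM in NI Ctrl embryos. Frog 2 had 6.43, 5.29 and 7.11 TPM in Cxxc1 MO, 4.57, 6.37 and 5.01 TPM in Kmt2b MO, 8.94, 7.34 and 14.9 TPM in Ctrl MO and 9.64, 9.11 and 9.69 TPM in NI Ctrl embryos. One Ctrl MO library in each frog, set 3, stood well above the other 2. The log2 fold change was -0.60 (SE 0.18, adjusted p = 0.0926) in Kmt2b MO and -0.39 (SE 0.18, adjusted p = 0.628) in Cxxc1 MO embryos, neither called.

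cer1.S, which encodes Cerberus, was expressed mainly in frog 2. There its level was 2.43, 2.16 and 2.99 TPM in Cxxc1 MO, 1.69, 1.05 and 1.59 TPM in Kmt2b MO, 3.23, 3.55 and 6.26 TPM in Ctrl MO and 5.96, 5.90 and 5.69 TPM in NI Ctrl embryos, with no overlap between either knockdown and either control. The libraries of frog 1 held 0.160, 0.991 and 0.854 TPM in Cxxc1 MO, 0.414, 0.412 and 0.441 TPM in Kmt2b MO, 0.846, 0.955 and 1.12 TPM in Ctrl MO and 0.572, 1.14 and 2.05 TPM in NI Ctrl embryos. In the fit of frog 2 alone it fell in Kmt2b MO embryos, its log2 fold change being -1.10 (SE 0.20, adjusted p = 0.0405). That call was lost when any of the 6 libraries other than Ctrl MO set 2 was left out. The value in Cxxc1 MO embryos was -0.56 (SE 0.20, adjusted p = 0.650), not called.

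Among the Wnt antagonists, dkk1.L had the largest fitted decrease of the 10 tested members in Kmt2b MO embryos. In embryos of frog 1 it measured 1.53, 4.28 and 3.50 TPM in Cxxc1 MO, 1.16, 1.15 and 1.11 TPM in Kmt2b MO, 2.20, 4.18 and 4.47 TPM in Ctrl MO and 2.87, 4.50 and 2.34 TPM in NI Ctrl embryos. The libraries of frog 2 held 2.36, 2.49 and 3.22 TPM in Cxxc1 MO, 2.58, 2.36 and 1.81 TPM in Kmt2b MO, 4.13, 4.71 and 6.26 TPM in Ctrl MO and 7.02, 7.20 and 6.15 TPM in NI Ctrl embryos. The 3 Kmt2b MO libraries of frog 1 were nearly alike and below all others of that frog, while Cxxc1 MO overlapped with Ctrl MO there. dkk1.L fell in Kmt2b MO embryos, its log2 fold change being -0.98 (SE 0.19, adjusted p = 0.00611). For Cxxc1 MO embryos the value was -0.45 (SE 0.19, adjusted p = 0.567), not called.

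dkk1.S overlapped between the frogs at 7.5 hpf, unlike at 5.5 hpf. In frog 1 it was at 3.96, 5.22 and 3.44 TPM in Cxxc1 MO, 3.17, 3.62 and 3.12 TPM in Kmt2b MO, 5.44, 6.04 and 5.50 TPM in Ctrl MO and 5.74, 5.29 and 8.22 TPM in NI Ctrl embryos. In embryos of frog 2 it measured 3.99, 3.69 and 4.69 TPM in Cxxc1 MO, 3.89, 4.56 and 4.96 TPM in Kmt2b MO, 6.56, 5.93 and 9.08 TPM in Ctrl MO and 10.5, 9.10 and 10.4 TPM in NI Ctrl embryos. All knockdown libraries lay below all control libraries of their frog. dkk1.S fell in Kmt2b MO embryos, its log2 fold change being -0.60 (SE 0.12, adjusted p = 0.00691). For Cxxc1 MO embryos the value was -0.52 (SE 0.12, adjusted p = 0.0514), not called.

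frzb.S was the second gene called in both knockdowns. Frog 1 had 0.441, 0.897 and 0.564 TPM in Cxxc1 MO, 0.809, 0.525 and 0.651 TPM in Kmt2b MO, 1.16, 1.12 and 1.48 TPM in Ctrl MO and 1.70, 1.71 and 2.46 TPM in NI Ctrl embryos. In frog 2 it was at 3.20, 2.35 and 3.54 TPM in Cxxc1 MO, 2.78, 2.64 and 2.44 TPM in Kmt2b MO, 4.91, 4.44 and 6.92 TPM in Ctrl MO and 6.59, 7.38 and 7.46 TPM in NI Ctrl embryos. No knockdown library reached any control library of its frog. The log2 fold change was -0.57 (SE 0.11, adjusted p = 0.0128) in Cxxc1 MO embryos and -0.62 (SE 0.11, adjusted p = 0.00234) in Kmt2b MO embryos. With only the 2 groups in the fit, frzb.S was under the filter in frog 1 and was not tested in either knockdown. frzb.L averaged 0.396 ± 0.153 TPM in Cxxc1 MO, 0.395 ± 0.282 TPM in Kmt2b MO and 0.703 ± 0.192 TPM in Ctrl MO embryos of frog 1, and 1.90 ± 0.314 TPM in Cxxc1 MO, 2.00 ± 0.544 TPM in Kmt2b MO and 4.06 ± 1.27 TPM in Ctrl MO embryos of frog 2 (SD, n = 3 each).

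**Figure D4:**
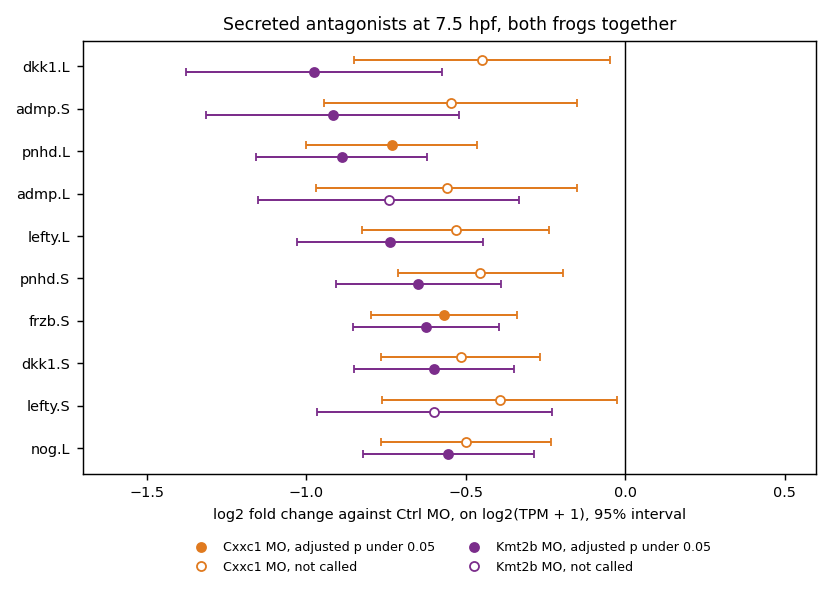
Log2 fold change against Ctrl MO at 7.5 hpf on log2(TPM + 1), with its 95% interval (horizontal axis), for the 10 members tested in the fit of both frogs (rows), with Cxxc1 MO in orange above Kmt2b MO in purple. Filled circles have an adjusted p under 0.05, which holds for 2 genes in Cxxc1 MO embryos and 8 in Kmt2b MO embryos. All 20 values are negative.

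The summed levels show which sets stood apart. The 13 entries summed to 33.0, 58.6 and 35.7 TPM in Cxxc1 MO, 25.2, 40.5 and 31.6 TPM in Kmt2b MO, 51.5, 63.3 and 66.4 TPM in Ctrl MO and 49.7, 67.9 and 74.8 TPM in NI Ctrl embryos of frog 1. In frog 2 the sums were 63.6, 52.7 and 75.5 TPM in Cxxc1 MO, 53.1, 63.9 and 54.9 TPM in Kmt2b MO, 94.5, 93.0 and 135 TPM in Ctrl MO and 115, 128 and 132 TPM in NI Ctrl embryos. Set 2 was the high library of both knockdowns in frog 1, and that of Cxxc1 MO overlapped with Ctrl MO. Without it, 6 of 10 members were called lower in Cxxc1 MO embryos rather than 2. The share of all genes called lower without that library is not given here, so this change is no result about the members.

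By frog, the direction was the same and the number of calls was not. In Kmt2b MO embryos of frog 2, 4 of 13 members fell (cer1.S, dkk1.L, lefty.L and pnhd.L), against 0.294% of all genes, and in frog 1 0 of 10 did, against 0%. In Cxxc1 MO embryos the counts were 0 of 13 in frog 2 (0.0299% of all genes) and 0 of 10 in frog 1 (0.00991%). At an unadjusted p under 0.05, limma gave 9 of 10 in Kmt2b MO embryos of frog 1 (6.05% of all genes). For Cxxc1 MO embryos it gave 11 of 13 in frog 2 (5.02%) and 4 of 10 in frog 1 (5.86%). Both counts of frog 1 include frzb.S, which reached the filter there only through the controls. Its part in them is no evidence of how often members fall. The 4 calls of frog 2 became 2 without Ctrl MO set 2 and 0 without any one of the other 5 libraries. All 3 knockdown libraries lay below all 3 Ctrl MO libraries for 12 of 13 entries in Cxxc1 MO (3.68% of all entries) and 12 of 13 in Kmt2b MO embryos (4.67%) of frog 2, and for 7 of 13 in Cxxc1 MO (4.96%) and 10 of 13 in Kmt2b MO embryos (5.56%) of frog 1. These shares are over entries with a Ctrl MO mean of at least 0.5 TPM, which all 13 members reached in both frogs. In frog 1 frzb.L averaged 0.396 TPM in Cxxc1 MO and 0.395 TPM in Kmt2b MO embryos, and cer1.S 0.422 TPM in Kmt2b MO embryos. There they entered only through Ctrl MO, so their part in the counts is no evidence of how often members fall. The test of the difference between frogs called 0 of 10 members for Cxxc1 MO (0.00522% of all genes) and 0 of 10 for Kmt2b MO (0%), and none had an unadjusted p under 0.05 (limma), as had 2.40% of all genes for Cxxc1 MO and 2.74% for Kmt2b MO.

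The knockdowns were also set directly against each other, and no member was called. Kmt2b MO values were lower than Cxxc1 MO values for 10 of 10 members in the fit of both frogs (45.8% of all genes), with a median log2 fold change of -0.19. By frog, the Kmt2b MO mean was the higher for nog.S and frzb.S in frog 1 and for nog.L, dkk1.S and frzb.L in frog 2. At an adjusted p under 0.05, 0 of 10 were called, as for 0% of all genes. At an unadjusted p under 0.05, limma gave 1 of 10 (3.97% of all genes), dkk1.L at -0.53 with a 95% interval from -0.93 to -0.13. For pnhd.L the difference was -0.16 with an interval from -0.42 to 0.11, and for lefty.L -0.21 from -0.50 to 0.09.

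Ctrl MO embryos were also compared with NI Ctrl embryos, a comparison that cannot tell injection from the control morpholino. Against NI Ctrl, 0 of 10 members were called in Ctrl MO embryos at 7.5 hpf (0.0261% of all genes), although 9 of 10 log2 fold changes were negative with a median of -0.14 and 2 had an unadjusted p under 0.05 (7.13% of all genes). These were frzb.S at -0.37 (SE 0.11) and dkk1.S at -0.29 (SE 0.12). Of all genes, 30.6% had a negative value in this comparison. For pnhd.L the value was 0.05 (SE 0.13). At 6.5 hpf the 13 entries summed to 17.6, 29.2 and 26.2 TPM in Ctrl MO and 28.0, 33.9 and 37.8 TPM in NI Ctrl embryos of frog 2, and to 5.47, 7.86 and 6.52 TPM in Ctrl MO and 5.20, 9.17 and 5.80 TPM in NI Ctrl embryos of frog 1. The sums of the 2 groups overlapped in each frog. Over members with an NI Ctrl mean of at least 0.5 TPM, the median was 76.4% of NI Ctrl in frog 2 (12 members) and 96.2% in frog 1 (4 members). In frog 2 all Ctrl MO libraries lay below all NI Ctrl libraries for cer1.S, lefty.L and lefty.S. At 7.5 hpf the median of the 13 was 100.4% of NI Ctrl in frog 1 and 81.8% in frog 2. The Ctrl MO mean was then the lower for 6 of 13 in frog 1 and 10 of 13 in frog 2. All Ctrl MO libraries lay below all NI Ctrl libraries for frzb.S in frog 1, and for dkk1.S and frzb.L in frog 2. The median and the share of such separations over all entries were not worked out for this comparison at either time. Members also entered it by their NI Ctrl mean. These values are therefore no evidence of how members compare with other genes. admp.L, tested at 6.5 hpf with both frogs, was at -0.37 (SE 0.23) and not called.

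Summed levels of the knockdowns at 7.5 hpf lay above those of Ctrl MO embryos 1 h earlier in both frogs. The sums over the 13 entries at 6.5 hpf were 4.91, 6.43 and 3.49 TPM in Cxxc1 MO, 2.94, 4.91 and 5.45 TPM in Kmt2b MO and 5.47, 7.86 and 6.52 TPM in Ctrl MO embryos of frog 1. In frog 2 they were 9.00, 10.5 and 13.5 TPM in Cxxc1 MO, 13.4, 6.44 and 11.1 TPM in Kmt2b MO and 17.6, 29.2 and 26.2 TPM in Ctrl MO embryos.

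The copies of a pair differed in level. At 7.5 hpf the L copy was above the S copy in all 24 libraries for nog, lefty and pnhd, and in 11 of 12 libraries of each frog for admp. The S copy was above the L copy in all 24 libraries for frzb, and for dkk1 in all of frog 2 and all but 1 of frog 1. In frog 2 the medians over 12 libraries were 7.21 TPM for pnhd.L and 4.02 TPM for pnhd.S, 13.7 TPM for lefty.L and 7.23 TPM for lefty.S, and 3.67 TPM for dkk1.L and 5.44 TPM for dkk1.S. A change in the difference between copies was tested for admp, dkk1, lefty and pnhd in both knockdowns by an exact two-sided permutation test of libraries within frogs, added after the values were seen. Of 8 tests, 1 passed after Benjamini-Hochberg adjustment. In Cxxc1 MO embryos the difference pnhd.L minus pnhd.S on log2(TPM + 1) was 0.73 ± 0.19, against 1.01 ± 0.25 in Ctrl MO embryos (SD, n = 6 each, exact p = 0.005, adjusted p = 0.04), where 0.005 is the smallest p that the 400 arrangements allow. With a pseudocount of 0.1 TPM the change was -0.23 with an adjusted p of 0.22, so the call depends on the pseudocount.

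The chordin copies, the best known BMP antagonists of the organizer, were not called in either knockdown at 7.5 hpf. Their fitted values were all negative. In Kmt2b MO embryos the unadjusted p from limma was 0.00453 for chrd.1.L, 0.00337 for chrd.1.S and 0.00194 for chrd.2.L. Of all genes, 10.9% had an unadjusted p under 0.05 there. chrd.1.S in frog 2 at 7.5 hpf was at 8.06, 6.37 and 11.2 TPM in Cxxc1 MO, 5.25, 10.1 and 6.83 TPM in Kmt2b MO, 10.9, 9.58 and 15.3 TPM in Ctrl MO and 13.7, 12.6 and 11.7 TPM in NI Ctrl embryos. The libraries of frog 1 held 3.60, 5.02 and 5.85 TPM in Cxxc1 MO, 4.65, 7.17 and 3.93 TPM in Kmt2b MO, 5.38, 11.1 and 7.35 TPM in Ctrl MO and 9.87, 11.0 and 9.55 TPM in NI Ctrl embryos. Knockdown and Ctrl MO libraries of chrd.1.S overlapped in both frogs. For chrd.1.L all Kmt2b MO libraries lay below all Ctrl MO libraries, at 60.3% of the Ctrl MO mean in frog 1 and 71.6% in frog 2. For chrd.2.L this held in frog 1 only, at 48.4%. Cxxc1 MO libraries of chrd.1.L and chrd.2.L overlapped with Ctrl MO in both frogs. The log2 fold changes of chrd.1.S were -0.57 (SE 0.17, adjusted p = 0.104) in Kmt2b MO and -0.52 (SE 0.17, adjusted p = 0.299) in Cxxc1 MO embryos. For chrd.2.L they were -0.64 (SE 0.18, adjusted p = 0.0738) in Kmt2b MO and -0.33 (SE 0.18, adjusted p = 0.852) in Cxxc1 MO embryos, and for chrd.1.L -0.52 (SE 0.16, adjusted p = 0.123) in Kmt2b MO and -0.30 (SE 0.16, adjusted p = 0.863) in Cxxc1 MO embryos.

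The ligands and targets of the same pathways were read from lists in the same fit, where 1.01% of genes were called lower in Kmt2b MO embryos and 0.277% in Cxxc1 MO embryos. Of organizer transcription factors 8 of 11 tested fell in Kmt2b MO and 1 of 11 in Cxxc1 MO embryos, with median log2 fold changes of -0.65 in Kmt2b MO and -0.49 in Cxxc1 MO embryos. Both copies of the organizer homeobox gene goosecoid were lower in Kmt2b MO embryos, gsc.L at -0.99 (SE 0.19, adjusted p = 0.00517) and gsc.S with an adjusted p of 0.00107. In Cxxc1 MO embryos gsc.S was lower, at -0.97 (SE 0.16, adjusted p = 0.00387), and gsc.L at -0.80 was not called (SE 0.19, adjusted p = 0.0590). Of BMP response genes, which read out the pathway that Noggin, Chordin and Cerberus restrain, 13 of 19 fell and 1 (id2.L, named after its value was seen) rose in Kmt2b MO embryos, and 5 of 19 fell in Cxxc1 MO embryos. ventx1.2.S, a ventral homeobox gene, changed by -1.27 (SE 0.13, adjusted p = 2.17e-05) in Kmt2b MO and -1.12 (SE 0.13, adjusted p = 0.000111) in Cxxc1 MO embryos.

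Of Nodal ligands and co-receptors, 4 of 15 fell in Kmt2b MO and 2 of 15 in Cxxc1 MO embryos, nodal1.L at -0.78 (SE 0.13, adjusted p = 0.00138) in Kmt2b MO and -0.59 (SE 0.13, adjusted p = 0.0332) in Cxxc1 MO embryos. Of the Nodal receptors and transducers 0 of 14 fell in either knockdown, and 1 rose in both, the receptor gene acvr1b.L at 0.76 in Kmt2b MO and 0.68 in Cxxc1 MO embryos. BMP ligands, receptors and modulators had 0 of 20 called in either direction in both knockdowns, and 3 of 20 at an unadjusted p under 0.05 in each (limma), where all genes had 10.9% in Kmt2b MO embryos and 6.93% in Cxxc1 MO embryos. Among Wnt ligands, receptors and modulators 5 of 17 fell in Kmt2b MO and 1 of 17 in Cxxc1 MO embryos, with the Frizzled receptor gene fzd8.S lower in both, at -0.96 in Kmt2b MO and -0.73 in Cxxc1 MO embryos. Of 5 other genes of secreted proteins tested, the chordin copies included, 1 fell in Kmt2b MO embryos, admp2.L at -0.69. There 4 of 5 had an unadjusted p under 0.05 in limma (10.9% of all genes). In Cxxc1 MO embryos 0 fell, and 3 of 5 had an unadjusted p under 0.05 in limma (6.93% of all genes).

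Markers of the embryo's regions gave the following. Of mesendoderm markers 10 of 21 tested fell in Kmt2b MO and 5 of 21 in Cxxc1 MO embryos, and the 35 entries of the list summed to 678 to 759 TPM in Kmt2b MO, 649 to 897 TPM in Cxxc1 MO and 933 to 1380 TPM in Ctrl MO embryos of frog 2, and to 512 to 702 TPM in Kmt2b MO, 547 to 712 TPM in Cxxc1 MO and 680 to 787 TPM in Ctrl MO embryos of frog 1. The ectoderm and epidermis list had 3 of 13 lower and 1 higher in Kmt2b MO embryos, and 0 of 13 lower and 1 higher in Cxxc1 MO embryos, the higher gene being grhl1.S in both. Its 18 entries summed to 435 to 496 TPM in Kmt2b MO, 358 to 529 TPM in Cxxc1 MO and 426 to 567 TPM in Ctrl MO embryos of frog 2, and to 464 to 474 TPM in Kmt2b MO, 415 to 497 TPM in Cxxc1 MO and 448 to 521 TPM in Ctrl MO embryos of frog 1. Maternal and germ plasm mRNAs had 0 of 16 called in both knockdowns, with 4 of 16 in Kmt2b MO embryos (10.9% of all genes) and 0 of 16 in Cxxc1 MO embryos (6.93%) at an unadjusted p under 0.05 (limma). At 5.5 hpf the mesendoderm list already summed to 530 to 558 TPM in Ctrl MO embryos of frog 1 and 553 to 625 TPM in those of frog 2. The ectoderm and epidermis list then summed to 594 to 605 TPM in Ctrl MO embryos of frog 1 and 716 to 760 TPM in those of frog 2. The sums at 7.5 hpf are therefore no measure of the size of these regions. No marker of the 3 lists was at 0 in all 24 libraries at 7.5 hpf. The part of the mesendoderm decrease in the values of the members was not tested.

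Likeness of pattern was measured as Pearson's r of log2(TPM + 1) over the 24 group means (2 frogs, 3 time points, 4 injection groups) among 13893 genes, as a description of points that share libraries and the rise with time. The genes most like admp.L were LOC121394689 (r = 0.996), LOC108702848 (0.994) and hal.1.L (0.993). Among those most like lefty.L were chrd.1.L (0.994) and stx19.L (0.993), and lefty.S ran with ventx3.2.L (0.994), ventx2.2.L (0.992) and has2.L (0.992). pnhd.L was most like a provisional entry, XB5848002.S (0.992), LOC121393064 (0.991) and chrd.1.S (0.991). For admp.S the 3 were LOC108715921 (0.992), ventx2.1.L (0.992) and its homeolog admp.L (0.992). The 2 members that exceeded 1 TPM in any library at 5.5 hpf had looser neighbours. For dkk1.S they were fzd8.L (0.966), LOC121394003 (0.963) and znf585b.L (0.958), and for nog.L fzd7.S (0.959), timp-1.L (0.949) and efna1.L (0.946).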

How the data were processed

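Total RNA from whole Xenopus laevis embryos was depleted of ribosomal RNA and sequenced as directional libraries. The authors quantified transcripts with kallisto 0.48 and deposited one TPM table per frog. The submitters' notes also name R 4.3.2 and DESeq2 1.42.1, with which the study tested its counts. Counts were not used here, so the tests below differ from the study's. Depth per library is unknown from TPM, since the scaling removes it.

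All 72 libraries were grouped by their labels, and 0 sample columns were left unmapped. Of 39668 gene entries 2323 share a name with another entry, none of them a member of the gene set. Positions and biotypes of 38926 entries came from RefSeq for assembly v10.1. Values were tested as log2(TPM + 1) with limma 3.58.1 in R 4.3.3 (lmFit and eBayes with trend), on genes that averaged 1 TPM or more in each frog, with frog as a covariate. This scale understates fold changes of low genes. p-values were two-sided and adjusted over all genes tested by Benjamini and Hochberg, with calls at 0.05. The time tests used the libraries of 1 injection group at a time. The fits were tested on simulated data, and Python 3.11.15 with SciPy 1.17.1 ran the permutation tests.

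The text names every gene of the rule, up to 3 genes of each other list with the lowest adjusted p in Kmt2b MO embryos at 7.5 hpf, and the 3 genes most like each member that averaged 5 TPM or more in Ctrl MO embryos at 7.5 hpf, apart from one gene that is not reported here. The genes and lists were chosen with earlier results of these data known. Alternatives were a pseudocount of 0.1 TPM, no filter, libraries centred on their median gene, protein-coding genes only, the set number as a block, only the groups compared, NI Ctrl as the control, and each library left out.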

Additional observations from a re-analysis of the deposited data

How the results depend on the processing

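For the 10 members tested at 7.5 hpf with both frogs, no alternative turned the direction of a log2 fold change against Ctrl MO. Of 378 comparisons of such a value with an alternative, 340 stayed on their side of the threshold, 33 passed it newly and 5 lost it. Other genes and times were not run one by one. At 7.5 hpf in Cxxc1 MO embryos of both frogs, 2 were called as reported, 5 with libraries centred on their median gene, 6 with protein-coding genes only, 7 with NI Ctrl as the control and 0 with only the 2 groups compared. With only the 2 groups, frzb.S was under the filter and not tested. All genes called in that comparison numbered 111 as reported (53 lower), 511 centred (196 lower), 399 protein-coding (180 lower), 606 against NI Ctrl and 7 with only the 2 groups. In Cxxc1 MO embryos of frog 2 the members called were 0 as reported, 6 centred, 9 protein-coding and 8 against NI Ctrl. In Kmt2b MO embryos of frog 2 they were 4 as reported, 1 without the filter, 11 centred, 12 protein-coding, 0 with only the 2 groups and 9 against NI Ctrl. In Kmt2b MO embryos of frog 1 protein-coding genes only gave 1. At 6.5 hpf NI Ctrl as the control gave 1 in Cxxc1 MO embryos. Kmt2b MO at 7.5 hpf with both frogs had 8 to 12 members called under the alternatives other than leaving out a library, and all genes called numbered 409 as reported (194 lower), 1094 centred (424 lower), 1192 protein-coding (310 lower) and 963 against NI Ctrl (352 lower). Without the filter 13 members rose to 7.5 hpf in each of the 4 groups, and with protein-coding genes only 8 rose to 6.5 hpf in NI Ctrl embryos. For the single frogs, for 6.5 hpf and for the time tests, the counts over all genes under these alternatives are not given here. The member counts of those fits are therefore no evidence of how members compare with other genes. The cause of these shifts was not tested, apart from the changed number of genes or libraries in the fit.

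Leaving out 1 library at a time gave 2 to 6 members in Cxxc1 MO embryos and 7 to 9 in Kmt2b MO embryos at 7.5 hpf, 0 to 1 in Kmt2b MO embryos at 6.5 hpf and 0 to 2 in Kmt2b MO embryos of frog 2. Rises to 6.5 hpf ranged over 2 to 4 in Cxxc1 MO, 3 to 3 in Kmt2b MO, 3 to 7 in Ctrl MO and 5 to 6 in NI Ctrl embryos, and rises to 7.5 hpf over 6 to 8 in Cxxc1 MO, 2 to 6 in Kmt2b MO, 6 to 9 in Ctrl MO and 7 to 8 in NI Ctrl embryos. Set numbers were not taken as a pairing. Same-numbered sets correlated between -0.23 and 0.33 (median 0.003), with 15 of 108 correlations over 0.1. Differently numbered sets at 7.5 hpf correlated between -0.15 and 0.18 in frog 1 and between -0.35 and 0.24 in frog 2. At that time set 1 had the lowest summed level of the members in each group of frog 1, and no set did so in frog 2. The correlations are over all genes at 1 TPM or more and cannot exclude a pairing for the members. With the set number as a replicate block, 4 members were called in Cxxc1 MO embryos and 10 in Kmt2b MO embryos at 7.5 hpf. For these fits and those that leave out 1 library, the counts over all genes are not given here. Their member counts are no evidence of how members compare with other genes. The homeolog tests and their pseudocount of 0.1 TPM were chosen after seeing the data. Depth, unknown from TPM, limits most the members under 1 TPM.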
